A study of Mus musculus with 20 samples.

Results

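RNA pulled down from mouse brain RNA by recombinant iron regulatory protein 2 (IRP2) was set against RNA recovered by the same procedure without the protein. The comparison holds the 4 of 20 arrays in the series whose titles name brain, 2 from IRP2 reactions and 2 from control reactions, and every ratio was taken within a pair of arrays with the same replicate number. After Affymetrix controls and probe sets that stayed below the median of their own array on all 4 brain arrays were dropped, 25476 of 45037 probe sets (56.6%) remained, and 21418 of them carried a single gene symbol, for 13109 genes.

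The series asked which mRNAs recombinant IRP2 binds in mouse tissues. Brain total RNA came from 6 C57BL6/J mice, male and female, aged 8 to 10 weeks and fed a diet with normal iron, and was pooled. In the IRP2 reactions, 50 µg of this RNA was combined with purified IRP2 that carried a His tag and had been made in E. coli, and complexes were recovered with a mouse monoclonal antibody against the tag. The control reactions used the same RNA input and antibody but no IRP2, and about 120 ng of recovered RNA was amplified in both. The other arrays, used to estimate the spread and for the comparison between tissues, came from duodenum, liver and spleen of mice kept from weaning on food with under 10 mg iron per kg for 21 days, and from bone marrow of mice of the same age and diet as those used for brain. The assay thus reports binding of an added recombinant protein, made in bacteria, to extracted RNA in a tube, not complexes formed in brain cells. RNA of a whole tissue does not tell more cells of a type from more RNA per cell.

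IRP2 and its relative IRP1 bind iron-responsive elements (IREs), short stem-loops found outside the coding part of several mRNAs that encode proteins of iron metabolism. When iron is scarce, IRPs on an IRE in the 5′ region hold back translation, as in ferritin mRNA, while IRPs on IREs in the 3′ region protect an mRNA from decay, as in transferrin receptor mRNA. In brain, neurons take up iron through the transferrin receptor, and loss of IRP2 in mice disturbs iron handling in the nervous system.

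Before any comparison, the arrays of a replicate lay close together and the replicates far apart. Across all 45037 probe sets, before the brightness filter, Spearman correlations were 0.993 and 0.994 between the IRP2 and control arrays of replicates 1 and 2. They were 0.943 to 0.947 between replicates. In both reactions, 3173 of the tested probe sets (12.5%) differed by more than 1 on the log2 scale between the replicates. The sources used here do not say if 1 pool fed both replicates. The p-values therefore reflect only the spread between pairs of arrays, estimated in the leading fit over all 5 tissues, and part or all of it may be technical. Neuronal markers averaged 11.2 and 11.7 on the IRP2 arrays and 11.2 and 11.5 on the control arrays (log2 signal, replicates 1 and 2), and oligodendrocyte markers 10.5 and 10.8 on the IRP2 arrays and 10.6 and 10.8 on the control arrays. Markers of duodenal epithelium were below the array median on all arrays (3 of 3 with a probe set). The same held for 2 of 3 markers of spleen lymphocytes and 2 of 4 of erythroid cells. It held for 0 of 4 markers of marrow myeloid cells and 0 of 3 of liver. The liver marker Alb had 8.74 and 6.51 on the IRP2 arrays and 8.79 and 6.20 on the control arrays, so its level differed between replicates and hardly between reactions.

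IRP2 enriched a small set of mRNAs. By limma with tissue and replicate number as a block, 49 probe sets (0.192% of those tested) were higher in the IRP2 reaction at an adjusted p under 0.05, and 1 (0.00393%) was lower. At an unadjusted p under 0.05, 474 were higher and 303 lower. The median log2 ratio of IRP2 to control over all tested probe sets was -0.03. The 49 belonged to 34 genes plus 9 probe sets that carry several gene symbols (2) or none (7) and are given by ID. Their ratios ran from 0.86 to 3.73 with a median of 1.52, with 46 reaching 2-fold. In 38 of them each pair on its own was at least 2-fold higher, against 41 (0.161%) of all tested probe sets. Both IRP2 arrays lay above both control arrays for 44, against 4.06% of all tested, and for the other 5 the arrays of the reactions overlapped because the replicates were so far apart in level.

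The fit pooled its spread over tissues, and the spread between the pairs was largest in bone marrow: the SD across probe sets of the pair ratios' deviation from their mean was 0.322 there, 0.144 in brain and 0.131 to 0.152 in the other 3 tissues. With brain arrays alone, limma called 84 probe sets higher (0.33%) and 9 lower (0.0353%), and without bone marrow 113 and 23, and each of the 49 was among the higher ones in both. Without replicate 1 of brain 15 were higher, without replicate 2 of brain 28. Of the 41 called probe sets with a single symbol, 30 lost the call without replicate 1 and 22 without replicate 2.

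**Figure D1:**
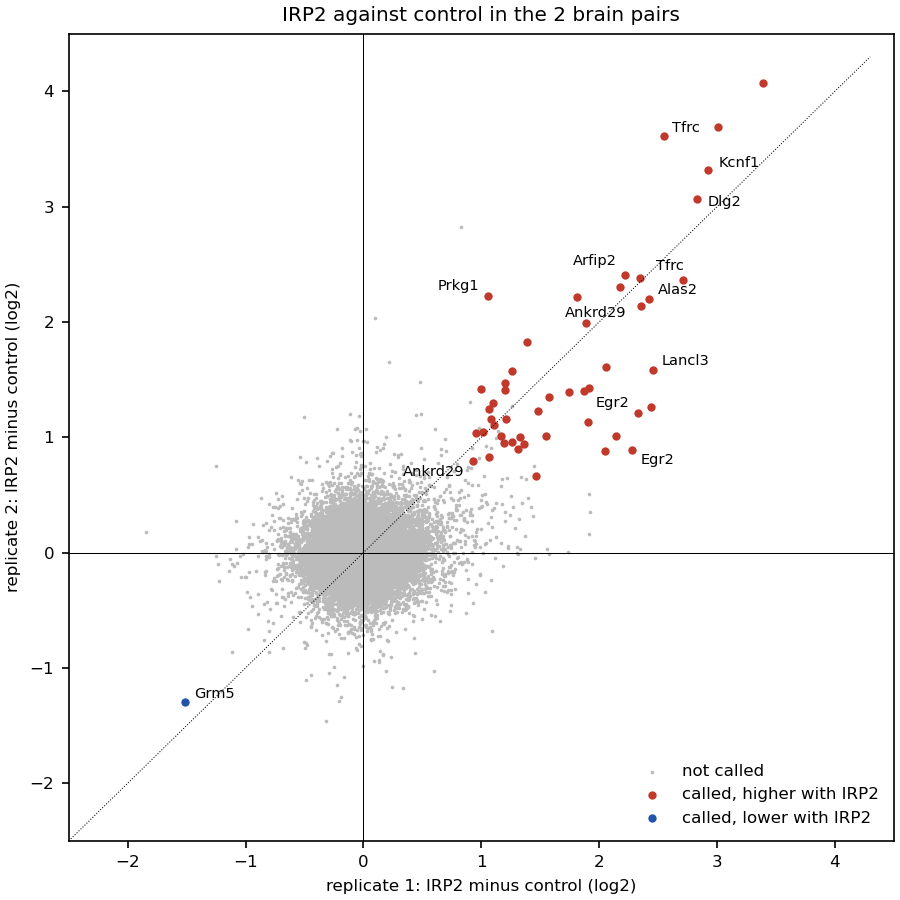
Log2 ratio of IRP2 to control in replicate 1 (horizontal) and replicate 2 (vertical) for each of the 25476 tested probe sets; red and blue points are probe sets called higher or lower by limma, grey points were not called, and the dotted line marks equal ratios. The called probe sets lie in the corners where both pairs moved the same way, and the ratios of all tested probe sets have an SD of 0.248 in replicate 1 and 0.212 in replicate 2.

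Of the 8 mRNAs with a textbook IRE that were listed, 6 had a kept probe set with a single symbol, 14 probe sets in all. Tfrc, Alas2 and Slc40a1 were higher with IRP2, on 4 probe sets, and none of the 14 was lower. Slc40a1 counts only through a probe set kept by the brightness filter on its IRP2 arrays alone, where it is high; without such probe sets, 2 genes were higher on 3 probe sets. The median ratio of the 6 genes on their brightest probe sets was 0.94, against -0.04 over all 13109 genes. Both IRP2 arrays lay above both controls for 10 of the 14, and for 8 of the 11 not kept through the IRP2 arrays alone, against 4.06% of all tested probe sets. Ftl1, the ferritin light chain gene, is covered only by 3 probe sets that carry several symbols.

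Tfrc encodes the transferrin receptor, which carries iron into cells, and its mRNA has several IREs in its 3′ untranslated region. Its brightest probe set (1452661_at) had 13.50 and 13.82 on the IRP2 arrays, against 11.16 and 11.44 on the control arrays (log2 signal, replicates 1 and 2). This is a log2 ratio of 2.36 ± 0.19 (SE, n = 2 per reaction), 5.14-fold, with a limma adjusted p of 9.98e-05. The IRP2 arrays stood well clear of the controls, and the pair ratios of 2.34 and 2.38 were nearly the same. A dimmer probe set (1422966_a_at) had 8.35 and 8.94 with IRP2 and 5.80 and 5.33 in control, a ratio of 3.08 ± 0.32 (adjusted p = 0.00075). The third (1422967_a_at) had 4.24 and 6.38 with IRP2 and 3.42 and 3.56 in control. It passed the brightness filter only through the IRP2 array of replicate 2. Its ratio of 1.82 ± 0.53 was not called (limma adjusted p = 0.736), and with brain arrays alone it was (adjusted p = 0.0357).

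Alas2 encodes the form of aminolevulinate synthase that starts heme synthesis in erythroid cells, with an IRE in its 5′ region. It had 8.80 and 8.35 with IRP2, against 6.38 and 6.14 in control, and the ratio was 2.31 ± 0.19, 4.97-fold (limma adjusted p = 9.98e-05). No IRP2 value overlapped a control value. Erythroid markers were measured in the same reactions. Of the 7 listed, 4 had a probe set with a single symbol. Hba-a1 has 3 further probe sets with several symbols and Hbb-b1 has 1, and these were not read, so globin mRNA is poorly covered. Slc4a1 and Hba-a1 stayed below the array median on their single-symbol probe sets. Klf1 had 5.51 and 5.54 with IRP2 and 5.54 and 4.81 in control, and Ermap had 6.19 and 7.01 with IRP2 and 6.25 and 6.32 in control. The mean of the 4 was 5.26 and 5.06 on the IRP2 arrays and 5.28 and 4.75 on the control arrays. The ratios of the 4 erythroid markers ran from -0.09 to 0.35. Only Klf1 and Ermap passed the brightness filter and were tested, and neither was called. The markers' part in the Alas2 result was not tested. The 7 other enzymes of heme synthesis with a kept probe set lack an IRE of this kind, and their median ratio was -0.04. Of them 0 were called in either direction, near the background of 0.192% of all tested probe sets higher and 0.00393% lower.

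Slc40a1 encodes ferroportin, the iron exporter. Its dimmer probe set (1448566_at) had 6.65 and 6.20 with IRP2, against 4.74 and 4.77 in control, a ratio of 1.67 ± 0.17 (limma adjusted p = 0.000599). It passed the brightness filter only through its IRP2 arrays, and its control level was below the 10th percentile of the tested ones (5.45), where the size of a ratio is less certain. The brighter probe set (1417061_at) had 9.21 and 8.90 with IRP2 and 8.23 and 7.82 in control. Its ratio of 1.03 ± 0.20 was not called with all tissues in the fit (adjusted p = 0.101) and was with brain arrays alone (adjusted p = 0.0018). On both probe sets the IRP2 arrays lay above the controls.

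Fth1, the ferritin heavy chain that stores iron, was among the brightest mRNAs on all 4 arrays. One probe set (1448771_a_at) had 13.79 and 13.91 with IRP2, against 12.64 and 12.86 in control, a ratio of 1.10 ± 0.22 (limma adjusted p = 0.140). The other (1427021_s_at) had 13.59 and 14.22 with IRP2 and 13.11 and 13.02 in control, a ratio of 0.84 ± 0.17 (adjusted p = 0.128). The groups did not overlap on either. With brain arrays alone the first was called and the second was not (adjusted p = 0.0013 and 0.0631), and without bone marrow both were (adjusted p = 0.000145 and 0.0082).

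Slc11a2 encodes the metal importer DMT1, whose transcripts end in different 3′ regions, with or without an IRE. The brightest probe set (1452078_a_at) had 7.91 and 8.19 with IRP2 and 7.14 and 7.48 in control, a ratio of 0.74 ± 0.23 (limma adjusted p = 0.94, and 0.0225 with brain arrays alone). The arrays of the reactions did not overlap on it. The other 3 probe sets had ratios of 0.47, -0.03 and -0.01, and which transcript ends they read was not analysed here. Epas1, which encodes the hypoxia factor HIF-2α, had 11.14 and 10.43 with IRP2 and 10.29 and 10.15 in control on its brighter probe set. Its ratios of 0.57 ± 0.18 and 0.43 ± 0.17 on the 2 probe sets were not called in any of the alternatives run.

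With brain arrays alone, 5 of the 6 IRE genes were called on 8 of their 14 probe sets, and without bone marrow also 5 on 8. Of the 8 with brain arrays alone, Tfrc 1422967_a_at and Slc40a1 1448566_at were kept only through IRP2 arrays. Slc40a1 1448566_at was also among the 8 without bone marrow. Genes of iron metabolism without a canonical IRE had ratios of -0.26 to 0.22 with a median of -0.13. Of 24 listed, 19 had a kept probe set, and 0 of their 31 probe sets were called in either direction. With 0.192% of all tested probe sets called higher, a count of 0 in this list, or in any list of similar size here, is near the background. Among them were Cp, the ferroxidase ceruloplasmin, at -0.17 to -0.02 over 4 probe sets, and Tfr2, the second transferrin receptor, at -0.23 and -0.26. Of 7 further mRNAs reported as bound by an IRP, 6 had kept probe sets and 0 were called. App, the amyloid precursor protein, had 13.16 and 12.89 with IRP2 and 13.13 and 12.73 in control on its brightest probe set, and its 3 probe sets had ratios of 0.02 to 0.11. Hao1, a peroxisomal 2-hydroxyacid oxidase, had 5.79 and 5.07 with IRP2 and 4.53 and 3.80 in control. Its ratio of 1.26 was not called (limma adjusted p = 0.18) but was with brain arrays alone (adjusted p = 0.000369); it was kept only through its IRP2 arrays and is singled out after its values were seen.

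**Figure D2:**
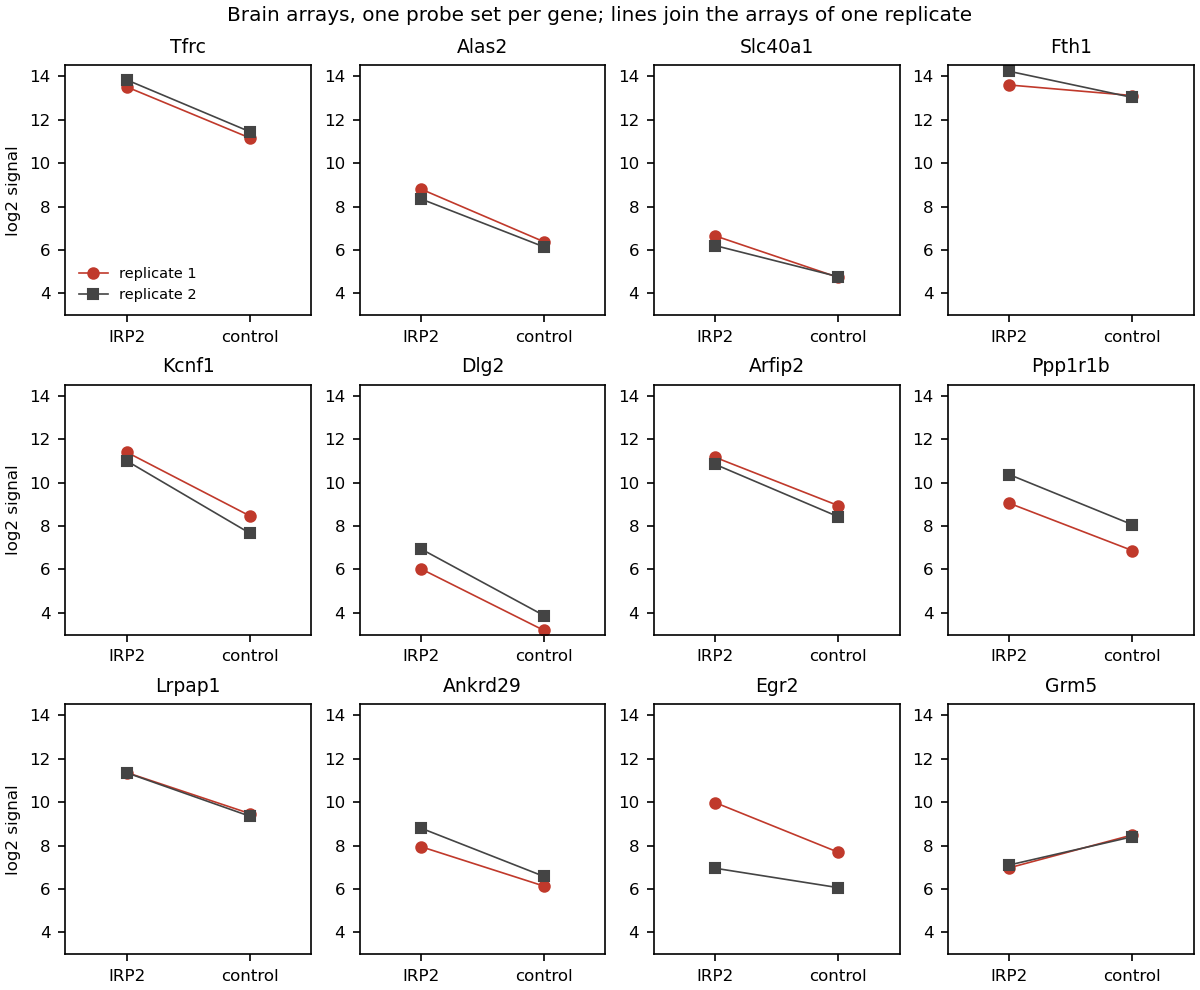
Log2 signal on the 4 brain arrays for 1 probe set of each of 12 genes, with IRP2 on the left and control on the right of each panel; red circles are replicate 1, dark squares replicate 2, and lines join the arrays of a replicate. All lines fall to the control side except those of Grm5, and in Egr2 the replicates lie further apart, on average, than the reactions.

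Kcnf1, a potassium channel subunit that modulates other subunits and forms no channel alone, had 11.39 and 10.99 with IRP2 against 8.47 and 7.67 in control on 1454768_at. The ratio was 3.13 ± 0.23, 8.72-fold (limma adjusted p = 4.92e-05), the highest among probe sets with a single symbol, and the groups lay far apart. The other Kcnf1 probe set (1441300_at) had 6.44 and 5.14 with IRP2 and 6.39 and 5.15 in control, a ratio of 0.02. Of the 12 voltage-gated potassium channel subunits with kept probe sets, Kcnf1 was the 1 called, against 34 of 13109 genes higher in all. The median of the 12 was 0.02. Kcna1, Kcna2, Kcnc1 and Kcnc2, which form delayed or low-threshold potassium currents in neurons, had ratios of -0.30 to 0.20 over their 11 probe sets.

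Dlg2 encodes PSD-93, a scaffold under the postsynaptic membrane. Its probe set 1421199_at had 6.03 and 6.94 with IRP2 and 3.20 and 3.88 in control, a ratio of 2.95 ± 0.22, 7.71-fold (limma adjusted p = 4.92e-05). The control values were near the bottom of the arrays and the probe set was kept only through its IRP2 arrays, so the size is uncertain, although the groups did not overlap. The other 2 Dlg2 probe sets had ratios of -0.11 and 0.48. Of 10 postsynaptic scaffold genes kept, Dlg2 was the 1 called, against 34 of 13109 genes higher in all. The median was -0.06, and the related Dlg1, Dlg3 and Dlg4 had ratios of -0.19 to 0.21.

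Ppp1r1b encodes DARPP-32, a phosphatase inhibitor abundant in neurons of the striatum that respond to dopamine. It had 9.05 and 10.37 with IRP2 and 6.87 and 8.06 in control, a ratio of 2.24 ± 0.19, 4.72-fold (limma adjusted p = 0.000138). Both reactions were higher in replicate 2 than in replicate 1, and the pair ratios of 2.18 and 2.30 were close. Prkg1, a cGMP-dependent protein kinase, had 9.65 and 10.58 with IRP2 and 8.60 and 8.36 in control (1444232_at, ratio 1.64 ± 0.23, adjusted p = 0.00963). Its pairs gave 1.06 and 2.22, so the size differed between replicates, and its other probe set had 0.50 and was not called. These were the 2 of 16 kept genes of cyclic nucleotide signalling that were called, against 34 of 13109 genes in all, and the median of the list was 0.00. Of 14 genes of the synaptic vesicle and release, 0 were called, with a median of 0.01.

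Grm5 encodes the metabotropic glutamate receptor mGluR5, and its probe set 1455272_at was the 1 lower with IRP2. It had 6.98 and 7.11 in the IRP2 reactions, against 8.49 and 8.40 in control, a ratio of -1.40 ± 0.14, 0.378 times the control (limma adjusted p = 0.000599). Both IRP2 arrays lay below both controls, as for 6.65% of all tested probe sets. The other Grm5 probe set (1456119_at) had 4.63 and 5.73 with IRP2 and 4.92 and 5.32 in control, a ratio of 0.06. Without replicate 1 the Grm5 ratio was -1.30 and lost its call (adjusted p = 0.0982). Of 13 glutamate receptor genes kept, Grm5 was the 1 called, against 1 lower and 34 higher of 13109 genes in all. The median was 0.05, and the AMPA receptor genes Gria1 to Gria4 had ratios of -0.11 to 0.28.

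Arfip2 encodes arfaptin-2, which binds small GTPases of the Arf and Rac families at the Golgi. It had 11.16 and 10.84 with IRP2 and 8.94 and 8.43 in control on 1435498_at, a ratio of 2.31 ± 0.15, 4.97-fold, with the smallest adjusted p of a named gene (limma, 3.04e-05). Its other probe set had 7.76 and 7.52 with IRP2 and 7.73 and 7.47 in control, a ratio of 0.04. Lrpap1, which escorts LDL receptor family members through the endoplasmic reticulum, had 4 kept probe sets that split the same way. The 1426697_a_at set had 11.36 and 11.34 with IRP2 and 9.47 and 9.35 in control, a ratio of 1.94 ± 0.16 (adjusted p = 9.98e-05), and 1452148_at had a ratio of 2.25 ± 0.23. The brightest one (1436609_a_at) had 10.62 and 11.73 with IRP2 and 10.91 and 11.76 in control, a ratio of -0.16, and the remaining one had -0.06.

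Ankrd29, an ankyrin repeat protein, was called on both of its probe sets. The brighter (1436294_at) had 7.95 and 8.80 with IRP2 and 6.13 and 6.58 in control, a ratio of 2.02 ± 0.16 (limma adjusted p = 8.32e-05), and the other had 0.86 ± 0.15 (adjusted p = 0.0409). Lancl3, of the LanC-like family, had 7.82 and 5.84 with IRP2 and 5.36 and 4.25 in control (ratio 2.02, adjusted p = 0.000599), and it was kept only through its IRP2 arrays. Nt5c, a cytosolic nucleotidase, had 10.15 and 9.47 with IRP2 and 8.09 and 7.86 in control (ratio 1.83, adjusted p = 0.00278). In all 3 genes the groups stayed apart.

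Egr2, a zinc finger factor induced by neuronal activity, had 9.56 and 6.80 with IRP2 and 7.23 and 5.60 in control on 1427683_at, and 9.97 and 6.95 with IRP2 and 7.69 and 6.06 in control on 1427682_a_at. Its ratios were 1.77 ± 0.23 and 1.59 ± 0.25 (limma adjusted p = 0.00376 and 0.022). Both reactions were much higher in replicate 1, so the arrays of the reactions overlapped, and the ratio rests on the pairing. Without replicate 1 the ratios were 1.21 and 0.89, and neither was called. Of 11 immediate early genes kept, Egr2 was the 1 called, against 34 of 13109 genes higher in all. Fos had -0.04, Junb -0.29, and the list's median was -0.01. The ETS factor Erg had 5.84 and 4.58 with IRP2 and 3.70 and 3.57 in control (1440244_at, ratio 1.58, adjusted p = 0.0144), again from control values below the 10th percentile, while its other probe set had 0.45. Outside the rule for named genes, and singled out after their values were seen, the orphan nuclear receptor Nr4a3 was called at 1.34 and the ETS factor Elf2 at 1.00. Each was called on 1 of 3 kept probe sets. Nr4a3 had -0.04 on its brightest and -0.17 on its lowest, and Elf2 had 0.25 on its lowest.

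The remaining highest ratios came from genes of several cell functions. Fam98b, a subunit of the tRNA ligase complex, had 12.29 and 11.11 with IRP2 and 10.41 and 9.71 in control (ratio 1.64, limma adjusted p = 0.00291). Cxcl16, a chemokine anchored in the membrane, had 6.11 and 6.54 with IRP2 and 4.72 and 4.71 in control (1449195_s_at, ratio 1.61, adjusted p = 0.000783). This probe set was kept only through its IRP2 arrays, and the other Cxcl16 probe set had 0.51. Cct7, a subunit of the chaperonin that folds actin and tubulin, was called on both probe sets, at 1.57 and 1.36. The brighter had 11.93 and 12.43 with IRP2 and 10.45 and 11.21 in control, with no overlap. Hmces, a sensor of abasic sites in DNA, had 1.46, Shisa2 1.52, and Taf10, a subunit of the general transcription factor TFIID, 1.42. Shisa2 was kept only through its IRP2 arrays, with a control mean below the 10th percentile. The other kept Taf10 probe set had 0.45 and was not called.

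The other called genes with a single symbol had ratios of 0.95 to 1.31. By the rule for named genes, Ralgapa1, part of a complex that switches off the GTPase Ral, had 1.31, Hspa4l, a heat shock protein of the Hsp110 family, 1.20, Ino80d, a subunit of a chromatin remodelling complex, 1.15 and Rprml 1.12. The others were outside that rule and are given after their values were seen: Gstt3, a glutathione transferase (1.28), the translation elongation factor Eef1b2 (1.21), the ESCRT-III subunit Chmp2b (1.19), Jakmip3 (1.11), Aagab (1.10 and 0.95), Ubxn1 (1.07), the kinase Cdkl1 (1.06) and Utp25 (1.03). Ralgapa1 and Gstt3 were kept only through their IRP2 arrays, and their control means lay below the 10th percentile, as did that of Cdkl1. For Gstt3, Hspa4l and Cdkl1, as for Egr2, the arrays of the reactions overlapped. Hspa4l, for example, had 8.58 and 10.36 with IRP2 and 7.47 and 9.06 in control. A further kept probe set was not called in Ralgapa1 (0.21), Ino80d (0.14), Utp25 (0.09) and Chmp2b (0.99).

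The 2 highest ratios of all stood on probe sets with several symbols. The 1418364_a_at set, with several symbols, had 10.88 and 12.65 with IRP2 and 7.48 and 8.58 in control, a ratio of 3.73 ± 0.23, 13.3-fold (limma adjusted p = 3.04e-05). The 1422302_s_at set, also with several, had 10.58 and 12.70 with IRP2 and 7.57 and 9.01 in control, a ratio of 3.35. The highest probe set with no symbol, 1433015_at, had 9.01 and 10.07 with IRP2 and 6.30 and 7.70 in control, a ratio of 2.54 (adjusted p = 9.98e-05). Replicate 2 was higher in both reactions for these 3, and both IRP2 arrays lay above both controls.

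Probe sets of the same gene often disagreed. Of the 35 called genes, 22 had at least 2 kept probe sets, and in 4 of them (Aagab, Ankrd29, Cct7 and Egr2) all kept probe sets were called. In 10 of the 22 the brightest probe set was not called, and in 7 the lowest ratio lay within 0.2 of 0. The widest gaps were in Kcnf1, Dlg2, Lrpap1, Arfip2 and Hspa4l. In Hspa4l, 1 probe set had 1.20 and the other 4 had -0.32 to 0.27. Which part of a transcript each probe set reads was not analysed here.

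**Figure D3:**
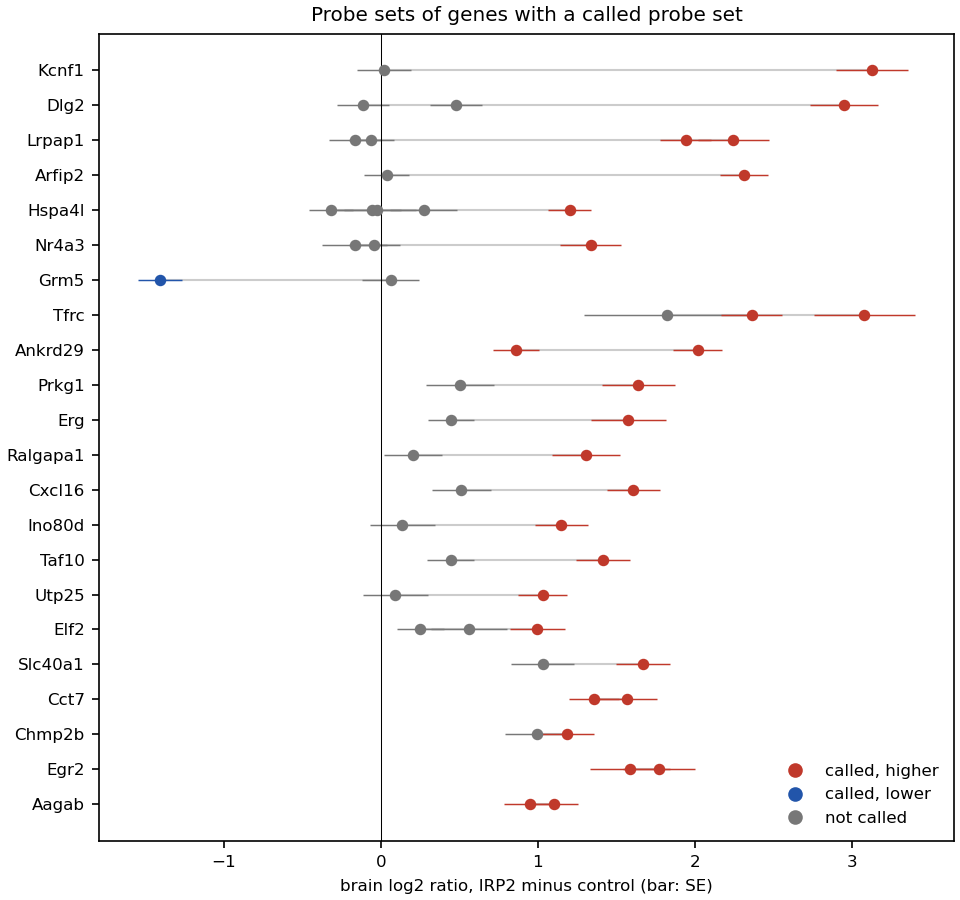
Brain log2 ratio (horizontal, bars are the SE) of every kept probe set of the 22 called genes that have at least 2, from the widest gap at the top to the narrowest at the bottom; red and blue points were called higher or lower by limma, grey points were not. In Kcnf1, Arfip2 and Lrpap1 a probe set near 0 stands beside 1 or 2 above 1.9, whereas in Cct7, Egr2 and Aagab all lie together.

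Many brain ratios recurred in the other tissues, whose arrays share no control with brain but share the fit. Of the 49 higher probe sets, 36 were also higher in spleen, 31 in duodenum, 27 in liver and 14 in bone marrow, and 11 were called in none of the other 4 tissues. These are 36 of 77 calls in spleen, 31 of 72 in duodenum, 27 of 53 in liver and 14 of 83 in bone marrow, over the same probe sets. In all 4 other tissues 9 were called, among them Tfrc (1422966_a_at), both Lrpap1 sets, Nt5c, Taf10 and Cxcl16. A list of 16 genes taken from the enriched genes of the other tissues had 15 with kept probe sets, of which 14 were higher in brain, with a median of 1.46. Of the list's 27 probe sets, 4 were kept only through their IRP2 arrays, and without these 10 genes were higher, on 12 probe sets. This list was chosen on these samples and is not independent evidence of its direction. The 1 not called was Bap1, a deubiquitinase, with ratios of 0.81 and 0.73. A list of 10 genes that were lower with IRP2 elsewhere had 0 called in brain, against 0.00393% of all tested probe sets lower, and a median of -0.14. Its lowest were Marveld1, with 7.94 and 8.23 with IRP2 and 8.74 and 9.09 in control (-0.83, limma adjusted p = 0.191), and Blmh, bleomycin hydrolase, with 9.98 and 9.64 with IRP2 and 10.66 and 10.47 in control (-0.75, adjusted p = 0.197). Both were called with brain arrays alone (adjusted p = 0.0099 and 0.0213). The other kept probe set had -0.08 for Marveld1 and 0.12 for Blmh.

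The difference between the brain ratio and the mean ratio of the other 4 tissues was tested in the same fit, and 5 probe sets (0.0196%) had a higher and 2 (0.00785%) a lower ratio in brain. At an unadjusted p under 0.05 there were 292 and 407. The brightness filter used brain arrays only, so a probe set may be dim in other tissues, where a ratio near 0 says little about binding. Signal levels in the other tissues are not given here. Brain differs in diet and age from duodenum, liver and spleen, but shares both with bone marrow. In brain and bone marrow the ratios were 2.95 and 0.96 for Dlg2, 3.13 and 1.24 for Kcnf1, 2.02 and 0.43 for Ankrd29, 1.12 and 0.00 for Rprml, 2.54 and -0.10 for 1433015_at, -1.40 and 0.11 for Grm5 and -0.08 and 1.15 for Parp14. The difference between these 2 tissues alone was not tested. Without the replicate block it gave 0 calls, without replicate 1 of brain also 0, without bone marrow 15 higher and 8 lower, and with bone marrow pair 1 left out 20 and 11.

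Dlg2 (1421199_at) stood at 2.95 in brain, against 1.72 in spleen, 0.96 in bone marrow, 0.21 in duodenum and 0.02 in liver, a difference of 2.22 ± 0.24 from their mean (limma adjusted p = 0.00685). The probe set entered the test only through its brain IRP2 arrays, where it is high, and without a filter on dim probe sets the adjusted p was 0.00593. Kcnf1 (1454768_at) had 3.13 in brain and 2.67 in duodenum but 1.24, 0.82 and 0.10 in bone marrow, spleen and liver, a difference of 1.92 ± 0.26 (adjusted p = 0.0303). Its brain ratio thus lay close to that of duodenum and apart from that of liver. Ankrd29 (1436294_at) had 2.02 in brain and 0.25 to 1.43 elsewhere (difference 1.25 ± 0.18, adjusted p = 0.0414). Rprml, which encodes a reprimo-like membrane protein, had 7.04 and 7.08 with IRP2 and 5.96 and 5.93 in control in brain. Its brain ratio was 1.12 ± 0.14, it had -0.18 to 0.18 in the other tissues, and the difference was 1.12 ± 0.15 (adjusted p = 0.0303). The unnamed 1433015_at had 2.54 in brain and -0.10 to 0.07 elsewhere, a difference of 2.55 (adjusted p = 0.00327).

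Grm5 had -1.40 in brain, against -0.05 to 0.11 in the other tissues, a difference of -1.44 ± 0.16 (limma adjusted p = 0.00685). Parp14, an ADP-ribosyltransferase, went the other way: its probe set 1432548_at had 6.32 and 5.91 with IRP2 and 6.43 and 5.97 in control in brain, a ratio of -0.08. In the other tissues it had 1.15 in bone marrow, 1.79 in spleen, 1.14 in liver and 1.49 in duodenum, and the difference was -1.47 ± 0.20 (adjusted p = 0.0303). Several genes just missed the threshold of 0.05. Arfip2 had a difference of 1.13 and Ppp1r1b of 1.45 (both adjusted p = 0.0565), and Lancl3 of 1.47 (adjusted p = 0.0615). Ppp1r1b had 2.24 in brain and 2.58 in duodenum, and -0.05 to 0.44 in the other 3 tissues. Cxcl16 was lower in brain (1.61) than in spleen (3.37), duodenum (3.23), liver (2.49) or bone marrow (1.90), but the difference of -1.14 was not called (adjusted p = 0.1).

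**Figure D4:**
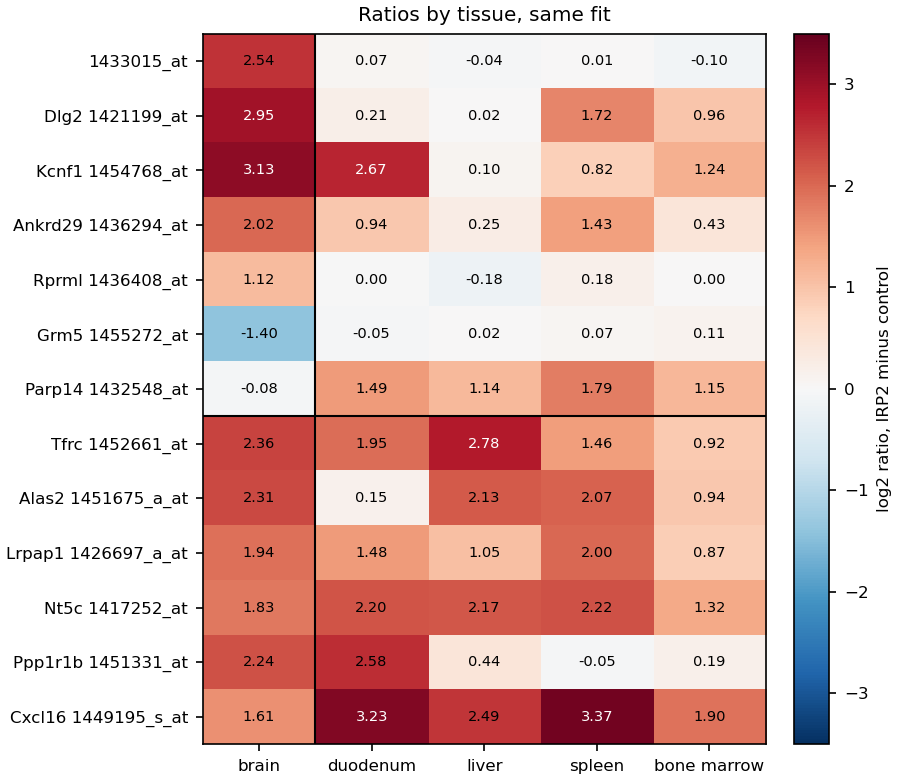
Log2 ratio of IRP2 to control in brain (left column) and the 4 other tissues for 13 probe sets, from the same limma fit; the colour scale and the printed numbers give the ratio. The 7 above the line differed between brain and the mean of the other tissues, and the 6 below it did not pass that test: Tfrc, Lrpap1, Nt5c and Cxcl16 were at 0.87 or more in all 5 tissues, while Alas2 had 0.15 in duodenum and Ppp1r1b was high in brain and duodenum.

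The medians of the cell type marker lists ran from -0.09 to 0.33. Of the marker lists for neurons, astrocytes, oligodendrocytes, microglia, endothelium, choroid plexus, erythroid cells, liver, lymphocytes and marrow myeloid cells, 0 genes were called in either direction, against 0.192% of all tested probe sets higher. Neuronal markers had a median ratio of 0.09, astrocyte markers -0.06 and oligodendrocyte markers -0.03. The highest marker was Cx3cr1, a chemokine receptor of microglia, with 7.42 and 6.97 with IRP2 and 5.98 and 6.65 in control, a ratio of 0.88 that was not called, while Csf1r, another microglial receptor, had -0.01. Of 9 housekeeping genes kept, 0 were called, with a median of 0.04.

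**Figure D5:**
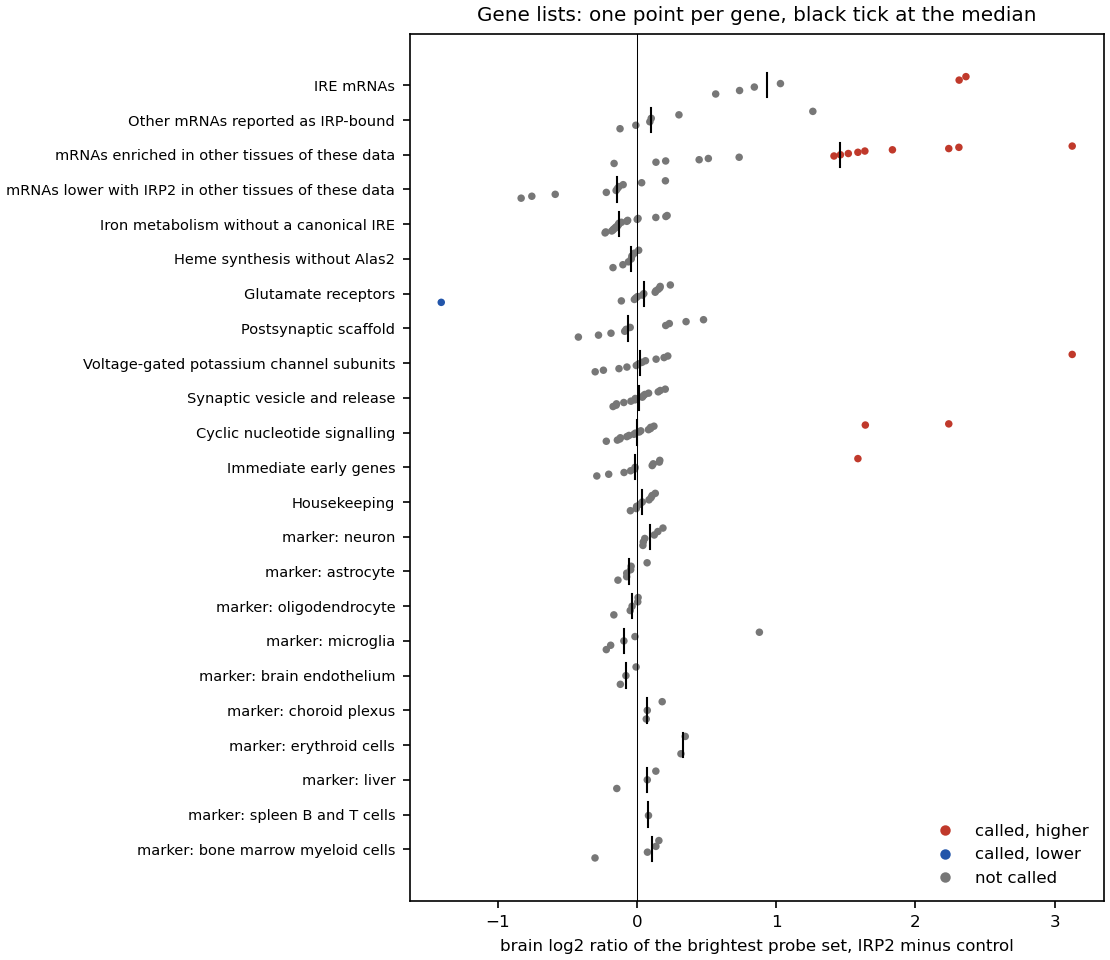
Brain log2 ratio of the brightest probe set (horizontal) of each gene in the gene and marker lists, with a black tick at the list's median; red and blue points were called higher or lower on that probe set, grey points were not. The IRE mRNAs and the genes enriched in other tissues lie to the right, with medians of 0.94 and 1.46, and the other medians lie between -0.14 and 0.33.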

How the data were processed

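The authors deposited a table of log2 probe set values for 20 Affymetrix Mouse Genome 430 2.0 arrays. Per the series' design text the values came from RMA, or from MAS5 in GCOS followed by quantile normalization; the sources used here give neither the choice nor a version. The medians of the brain arrays were 5.66 and 5.41 with IRP2 and 5.65 and 5.41 in control, for replicates 1 and 2. Arrays give no read depth, and their number limits the precision.

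Symbols came from the platform annotation, 204 probe sets with 1 symbol had no gene ID in the RefSeq table, and 0 symbols were changed. Probe sets with several symbols (565 kept) or none (3493 kept) are not named, and no IRE sequence was available in the tables used. The leading fit, by limma 3.58.1 (R 4.3.3), took all 20 arrays, with tissue and replicate number as a block (10 pairs, 5 residual degrees of freedom, prior 7.27). A second contrast set the brain ratio against the mean of the other 4. The Benjamini-Hochberg adjustment ran over 25476 probe sets, and a call is an adjusted p under 0.05. The pairing follows the labels, which number the replicates and say that each control ran in parallel; deviations of same-numbered arrays from their group means correlated at 0.929 in brain, 0.680 in duodenum, 0.530 in liver, 0.357 in spleen and 0.239 in bone marrow.

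In a test on simulated data, 200 among 25476 probe sets had been changed. The brain contrast recovered 2% at a log2 change of 0.5, 92% at 1 and 100% at 1.5 and 2, with 0 false calls. The simulated noise was normal and had the same spread for all probe sets of a pair, unlike the real arrays. These rates therefore need not hold for the real data.

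The genes named were every IRE mRNA, the 20 highest and 10 lowest called genes with the same sign in both pairs, each list's called members and up to 4 others in list order, the 10 genes ranked first by p in the test between brain and other tissues, and the 5 called genes with the largest gap between probe sets. Of the listed IRE mRNAs, 1 is not reported here. Members, lists and tests were chosen with earlier results of these data known. The alternatives were no block, brain arrays alone, no bone marrow, both other filters, centring, quantile normalization, a floor, an intensity trend, and leaving out each brain pair; leaving out bone marrow pair 1 was added after the data were seen.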

Additional observations from a re-analysis of the deposited data

Results flagged for a closer look

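The probe sets below differed between brain and the mean of the other 4 tissues by the limma contrast. Higher in brain were 1433015_at, which has no symbol (difference 2.55 on the log2 scale), Dlg2 (2.22), Kcnf1 (1.92), Ankrd29 (1.25) and Rprml (1.12). The Dlg2 probe set was kept only through its brain IRP2 arrays. Lower in brain were Parp14 (-1.47), which was enriched by IRP2 in the other tissues and not in brain, and Grm5 (-1.44), which was lower with IRP2 in brain and near 0 elsewhere. Whether these probe sets were bright in the other tissues was not part of the filter. Some alternatives, such as no block or no filter, leave the difference itself unchanged. Over the alternatives that gave a value, none of the 7 differences changed sign. Dlg2 ran from 2.11 to 2.34, Kcnf1 from 1.72 to 2.21, Ankrd29 from 1.05 to 1.65 and Rprml from 1.08 to 1.16. The ranges were 2.38 to 2.72 for 1433015_at, -1.55 to -1.34 for Grm5 and -1.57 to -1.45 for Parp14. The 1433015_at difference was called in 9 of 11 alternatives, that of Grm5 in 8 of 11, those of Kcnf1, Ankrd29, Rprml and Parp14 in 7 of 11, and that of Dlg2 in 7 of 10.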

How the results depend on the processing

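The size of the set depended on the spread that the fit used. Over 12 alternatives the 41 called probe sets with a single symbol gave 480 values, of which 388 kept the call. Of these values 0 changed sign, but most alternatives leave the ratio itself unchanged. Those without a brain replicate return the ratio of the other pair, and the called ratios had the same sign in both pairs. The signs are thus no separate evidence of direction. Called in every alternative that tested them were 7, those of Alas2, Ankrd29, Arfip2, Dlg2, Kcnf1, Lrpap1 (1426697_a_at) and Tfrc (1452661_at). Dlg2 was tested in 11 of the 12, because the filter asking for the median on all 4 brain arrays drops it. Against 49 higher and 1 lower, the fit without the replicate block gave 19 higher (0.0785% called in all, 16 of the 41 kept), brain arrays alone 84 and 9 (0.365%), and leaving out bone marrow, or its pair 1, 113 and 23 (0.534%). Probe sets at the median on all 4 arrays gave 32 higher, no filter 0.102% called, quantile normalization 3 lower and the intensity trend 2 lower. Leaving out a brain replicate gave 15 to 28 higher, 0 to 2 lower and 0.0589% to 0.118% called; the 0 lower came without replicate 1 (limma, 192 lower at an unadjusted p under 0.05).

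The tissue difference, 5 higher and 2 lower, gave 0 and 0 without the replicate block (60 and 47 before adjustment at 0.05), 15 and 8 with bone marrow left out, 20 and 11 without its pair 1, and 2 and 1 with each array centred on its median. Leaving out a brain replicate gave 0 to 3 higher and 0 to 1 lower, the 0 without replicate 1 (223 higher and 261 lower at an unadjusted p under 0.05). The cause was not tested. Among the 53 probe sets recomputed (the called ones with a single symbol, the IRE mRNAs, Marveld1 and Blmh), signs turned only on Slc11a2 probe sets near 0: 1417584_at (-0.03) had 0.0053 with quantile normalization and ran from -0.15 to 0.0999 with a replicate left out, and 1441709_at (-0.01) ran from -0.11 to 0.0815.

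Of the 49 ratios, 46 were at least 1. Levels near the bottom of the arrays limit the size of 12 of the 49 ratios, whose control means lay below the 10th percentile (5.45), and 10 passed the filter only through their IRP2 arrays.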

Other observations

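Brain arrays alone added 35 higher and 8 lower probe sets to the calls. The added higher ones had ratios of 0.68 to 1.82, and for 27 of the 35 both IRP2 arrays lay above both controls, against 4.06% of all tested probe sets. They were selected on the same brain arrays, so this separation is not independent evidence. In 25 of the 35 the ratio was also over 0.5 in duodenum, liver and spleen, and the share of all tested probe sets with this was not computed. Examples, chosen after their values were seen, follow. Snrpe, a core protein of the spliceosome, had 12.45 and 12.93 with IRP2 and 11.55 and 11.62 in control (1.10, limma adjusted p = 0.0023 with brain arrays alone and 0.0537 with all tissues). Rapgef2, an exchange factor for the GTPase Rap1, had 12.43 and 12.76 with IRP2 and 11.47 and 11.71 in control (1.00). The helicase Dhx9 had 1.01, and lipoprotein lipase, Lpl, 0.84. The glucocorticoid receptor, Nr3c1, had 9.76 and 9.90 with IRP2 and 8.79 and 9.31 in control (0.78). Groups did not overlap for Snrpe, Rapgef2 and Nr3c1.

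The added lower genes were Pi4k2b, a lipid kinase (-0.99), Marveld1, the Polycomb subunit Eed (-0.82), Cacfd1 (-0.80), Blmh, Syap1 (-0.74) and the potassium channel Kcnq5 (-0.69), beside 1 probe set without a single symbol. Marveld1, Blmh and Syap1 were also below -0.4 in duodenum, liver and spleen, whereas Kcnq5 had 0.03 to 0.12 there.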
